A study of Homo sapiens with 6 samples.

Results

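The 39 genes described here encode the machinery of DNA replication, together with the cyclin E and E2F genes that govern entry into S phase. They were taken by symbol from a list set by function, which was chosen with earlier results of these data known. All 39 of 39 were found, in 62 of 39618 rows and under 39 of 23204 gene symbols, and the row with the highest mean level represented each gene. The genes fall into 9 role groups, from the MCM2-7 helicase to chromatin assembly.

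In G1, CDC6 and CDT1 load the MCM2-7 helicase onto origins, and GMNN (geminin) later blocks CDT1 so that origins are loaded once per cycle. CDC45 and the GINS complex then activate the helicase, and the polymerases, the PCNA clamp and its RFC loader copy the DNA. Transcription of most of these genes peaks at the G1/S boundary, when cyclin-dependent kinases phosphorylate the retinoblastoma proteins and so release the E2F factors. HEK293T cells, a human embryonic kidney line, carry the simian virus large T antigen, which binds the retinoblastoma proteins.

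DDX3X is an RNA helicase of the DEAD-box family, and the study examined mutations of it that occur in medulloblastoma. RNA of HEK293T cells was sequenced in 6 groups of 1 library each. In the siRNA arm, cells received control siRNA or DDX3X siRNA for 48 h, and no sorting is described for them. In the plasmid arm, cells were transfected with 5 µg of plasmid for GFP alone, or for GFP-tagged DDX3X as wild type (WT), T275M or G302V, and GFP-positive cells were collected by flow cytometry after 32 h. All 4 plasmid groups therefore carried GFP and were sorted, and the plasmid-driven DDX3X was made beside the endogenous gene of the same cells. Mutants were named here from the labels, although a figure legend of the study gives G325E in place of T275M for its plasmid RNA-seq data.

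The promoters of the members are shown first, because E2F factors act through a short element there. Of the 39 members, 35 matched a RefSeq promoter (GRCh38.p14, 300 bases from 250 before to 50 after the gene start), while MCM4, MCM5, GINS4 and CCNE2 did not. The E2F element was searched on both strands as TTTCCCGC, TTTCGCGC, TTTGCCGC or TTTGGCGC, and matches were allowed to overlap. It was present in 20 of 35 member promoters (57.1%) and in 908 of 27305 promoters of that length (3.33%). The members were chosen as replication and E2F target genes, so a high share follows in part from that choice. In 3 lists of other cell cycle genes, described below, it was in 4 of 28 promoters of other replication genes (14.3%). It was in 4 of 19 promoters of G1 regulators (21.1%) and 3 of 23 of mitosis and G2 genes (13.0%). The windows below hold 30 bases each around the match, with the match in capitals on either strand, and the members were picked because the results turn on them. E2F1 and E2F2 were the members past 1.5-fold in some comparison, MCM2 and PCNA were among the lowest after DDX3X siRNA, MCM7 was the most abundant helicase subunit, and POLE went against most members in several comparisons. Only members with a match could be shown. PRIM1 and TK1, the next lowest after MCM2 with DDX3X siRNA, had a promoter but no match.

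MCM2 (chr3:127598404-127598433, plus strand): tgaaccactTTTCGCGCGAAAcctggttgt

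MCM7 (chr7:100101388-100101417, minus strand): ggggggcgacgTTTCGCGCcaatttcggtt

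PCNA (chr20:5126663-5126692, minus strand): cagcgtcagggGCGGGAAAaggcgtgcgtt

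E2F1 (chr20:33686394-33686423, minus strand): ctttcGCGGCAAAaaggaTTTGGCGCgtaa

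E2F2 (chr1:23531257-23531286, minus strand): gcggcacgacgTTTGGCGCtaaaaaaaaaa

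POLE (chr12:132687342-132687371, minus strand): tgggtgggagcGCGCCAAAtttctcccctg

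In the MCM2 window the element was read on both strands through a shared core, and it lay from 3 to 14 bases after the gene start. The E2F1 window held 2 separate elements. Other short motifs were searched in the same promoters. CCAAT was in 18 of 35 member promoters (51.4%) against 35.7% of all promoters, and TATAAA was in 2 of 35 (5.71%) against 11.95%. CCAAT was more frequent in other replication genes (17 of 28, 60.7%) and mitosis and G2 genes (19 of 23, 82.6%). In G1 regulators it was less frequent (6 of 19, 31.6%), and it was thus not particular to the members. TTTGAA is the core of the cell cycle homology region found in genes of G2 and mitosis. It was in 1 of 35 members (2.86%), 15.4% of all promoters and 15 of 23 promoters of the mitosis and G2 genes (65.2%).

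The libraries held 43720000 to 67520000 reads, except for DDX3X siRNA with 180870000, as recovered from the deposited values. DDX3X (chromosome X, 41192601 to 41223725 on GRCh37) was at 107 RPKM with control siRNA and 31.3 RPKM with DDX3X siRNA. Its level was 119 RPKM with GFP, 2894 with WT, 3279 with T275M and 1906 with G302V. Plasmid and endogenous reads cannot be told apart in these values. The labels also call the cells neuronal. Of 12 neuronal markers, 7 were at 1 RPKM or more in all 6 libraries, among them NEFM at 514 to 683 RPKM, while RBFOX3, MAP2, STMN2 and SLC17A7 stayed under 1 RPKM in each.

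All 39 members were expressed in every library, so that none was lost to the filter on low values. RPKM, reads per kilobase of transcript scaled to library size, allows levels to be compared between genes because it is per length. The median member stood at 52.1 RPKM with GFP, 55.7 with WT, 52.5 with T275M, 51.2 with G302V, 46.2 with control siRNA and 43.1 with DDX3X siRNA. The members were thus well above the median of all expressed genes, which was 11.4 to 11.97 RPKM. MCM7 or PCNA was highest in each library and E2F2 or CCNE2 lowest, and the fewest reads behind any member's value were 971 (CCNE2, G302V).

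The MCM2-7 genes encode the 6 subunits of 1 ring, the replicative helicase. MCM7 was at 254 RPKM with GFP, 235 with WT, 214 with T275M, 204 with G302V, 248 with control siRNA and 187 with DDX3X siRNA. MCM3, next in level, was at 142, 140, 124, 113, 134 and 106 RPKM in the same order of libraries, and MCM2 at 140.1, 132, 120.1, 111, 132 and 93.3 RPKM. For all 3 subunits the library with DDX3X siRNA was the lowest of the 6, and that with G302V the lowest of the plasmid arm. MCM4 was at 120.1, 115, 109.6, 102, 114 and 92.6 RPKM and MCM5 at 113, 115, 98.4, 93.8, 105 and 79.6 RPKM. MCM6, the least abundant subunit in every library, was at 71.4, 73.1, 62.0, 57.9, 68.0 and 53.8 RPKM. The ring is built of equal numbers of each subunit, yet the highest mRNA was 3.21 to 3.64 times the lowest. This ratio and the order of the genes were nearly the same throughout, the one change of place being MCM5 above MCM4 with WT. Summed over the 6 genes, the level was 840.3 RPKM with GFP, 809 with WT, 728 with T275M, 682 with G302V, 800.2 with control siRNA and 612 with DDX3X siRNA.

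**Figure D1:**
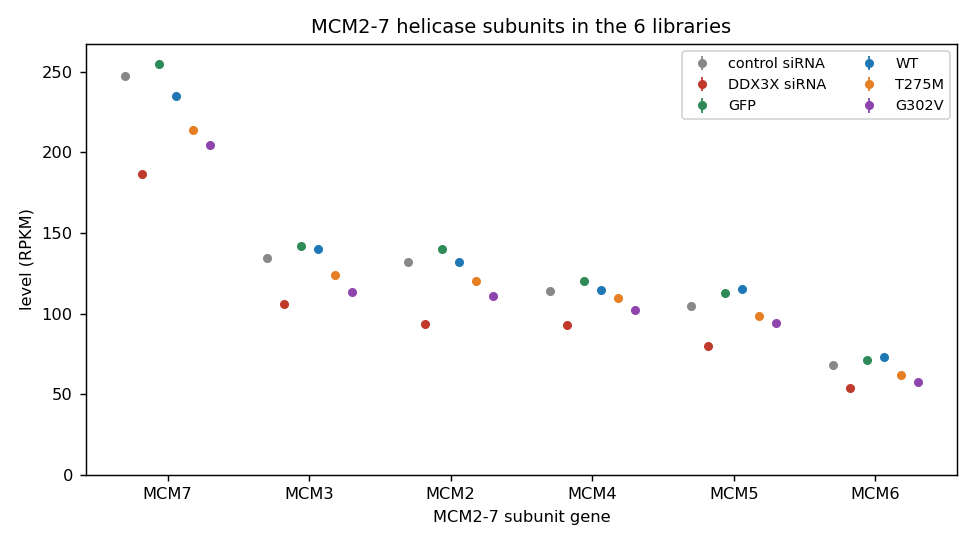
Level in RPKM (vertical axis) of the MCM2-7 genes (horizontal axis, ordered by level) in the 6 libraries, 1 point per library, with 95% counting intervals that are mostly smaller than the points. DDX3X siRNA (red) is the lowest point for each of the 6 genes, from 187 RPKM for MCM7 to 53.8 RPKM for MCM6, and G302V (purple) is the lowest of the plasmid libraries.

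The knockdown comparison asked how mRNA levels respond when DDX3X is depleted. The replication genes were mostly lower with DDX3X siRNA, by small amounts, while E2F1 was higher. Ratios are given as differences of log2(RPKM + 1), and each has an exact 95% counting interval that covers counting error only. With 1 library per group there is no replicate check, and no test of the conditions was possible. The median member was at -0.25, against -0.02 for all 12694 genes tested and -0.03 for those at 10 RPKM or more. The interval lay below 0 for 33 of 39 members and above 0 for 6, beside 40.1% and 32.8% of all genes, and 45.7% and 35.2% of genes at 10 RPKM or more. Higher by 1.5-fold or more stood 1 of 39 members, E2F1, where 1.04% of all genes did, and no member was lower by as much. A single member of 39 is close to that background. In bulk RNA, fewer cells in S phase and less of these mRNAs per cell cannot be told apart.

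All 6 helicase subunits were lower with DDX3X siRNA, from -0.30 (interval -0.31 to -0.28) for MCM4 to -0.49 (-0.51 to -0.47) for MCM2 (chromosome 3, 127317253 to 127341279 on GRCh37). MCM2 was the lowest of the members and 229th from the bottom of the 12694 genes. The next lowest were PRIM1 and TK1. PRIM1, the catalytic subunit of primase, was at 38.1 RPKM with control siRNA and 27.1 with DDX3X siRNA (-0.48, interval -0.53 to -0.42). TK1, the thymidine kinase of the salvage pathway, was at 60.4 and 44.5 RPKM (-0.43, interval -0.47 to -0.39). POLA2, a subunit of the polymerase alpha complex that works with primase, was at -0.43, and PCNA at -0.42. All 4 genes of nucleotide supply were lower: TK1, TYMS (thymidylate synthase, -0.35) and the ribonucleotide reductase subunits RRM1 (-0.28) and RRM2 (-0.25). So were the 3 genes of origin licensing, with CDT1 at -0.34, CDC6 at -0.24 and GMNN at -0.19. The clamp loader subunits RFC2 to RFC5 were less displaced, between -0.29 for RFC4 and -0.10 for RFC5.

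The role groups with members on both sides of 0 were the remaining ones. Among the helicase activators, CDC45 was at -0.29 and MCM10 at -0.20, 3 of the 4 GINS genes were at -0.28 to -0.18, and GINS1 was at 0.10. Of the polymerase genes, POLE, the catalytic subunit of the leading-strand polymerase, was at 0.12 (interval 0.09 to 0.14) and its partner POLE2 at -0.18. FEN1, the nuclease that trims Okazaki fragments, was at -0.18 and LIG1, the ligase that joins them, at 0.06. The chromatin assembly subunit CHAF1A was at 0.10 and its partner CHAF1B at -0.25, and the checkpoint adaptor CLSPN at -0.11. POLE and CLSPN have the longest transcript rows of the list, 7840 and 8484 bases. When a trend of the ratio with row length and GC content was removed, POLE moved to -0.16 and LIG1 to -0.02, no other member changed sign, and the median member was at -0.23. The DDX3X siRNA library was also the deepest, and after thinning of its reads to the depth of the control the median member was at -0.24. Thinning keeps the expected ratio of each gene and adds counting error only. It therefore cannot show whether the greater depth shifted the values before they were deposited.

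**Figure D2:**
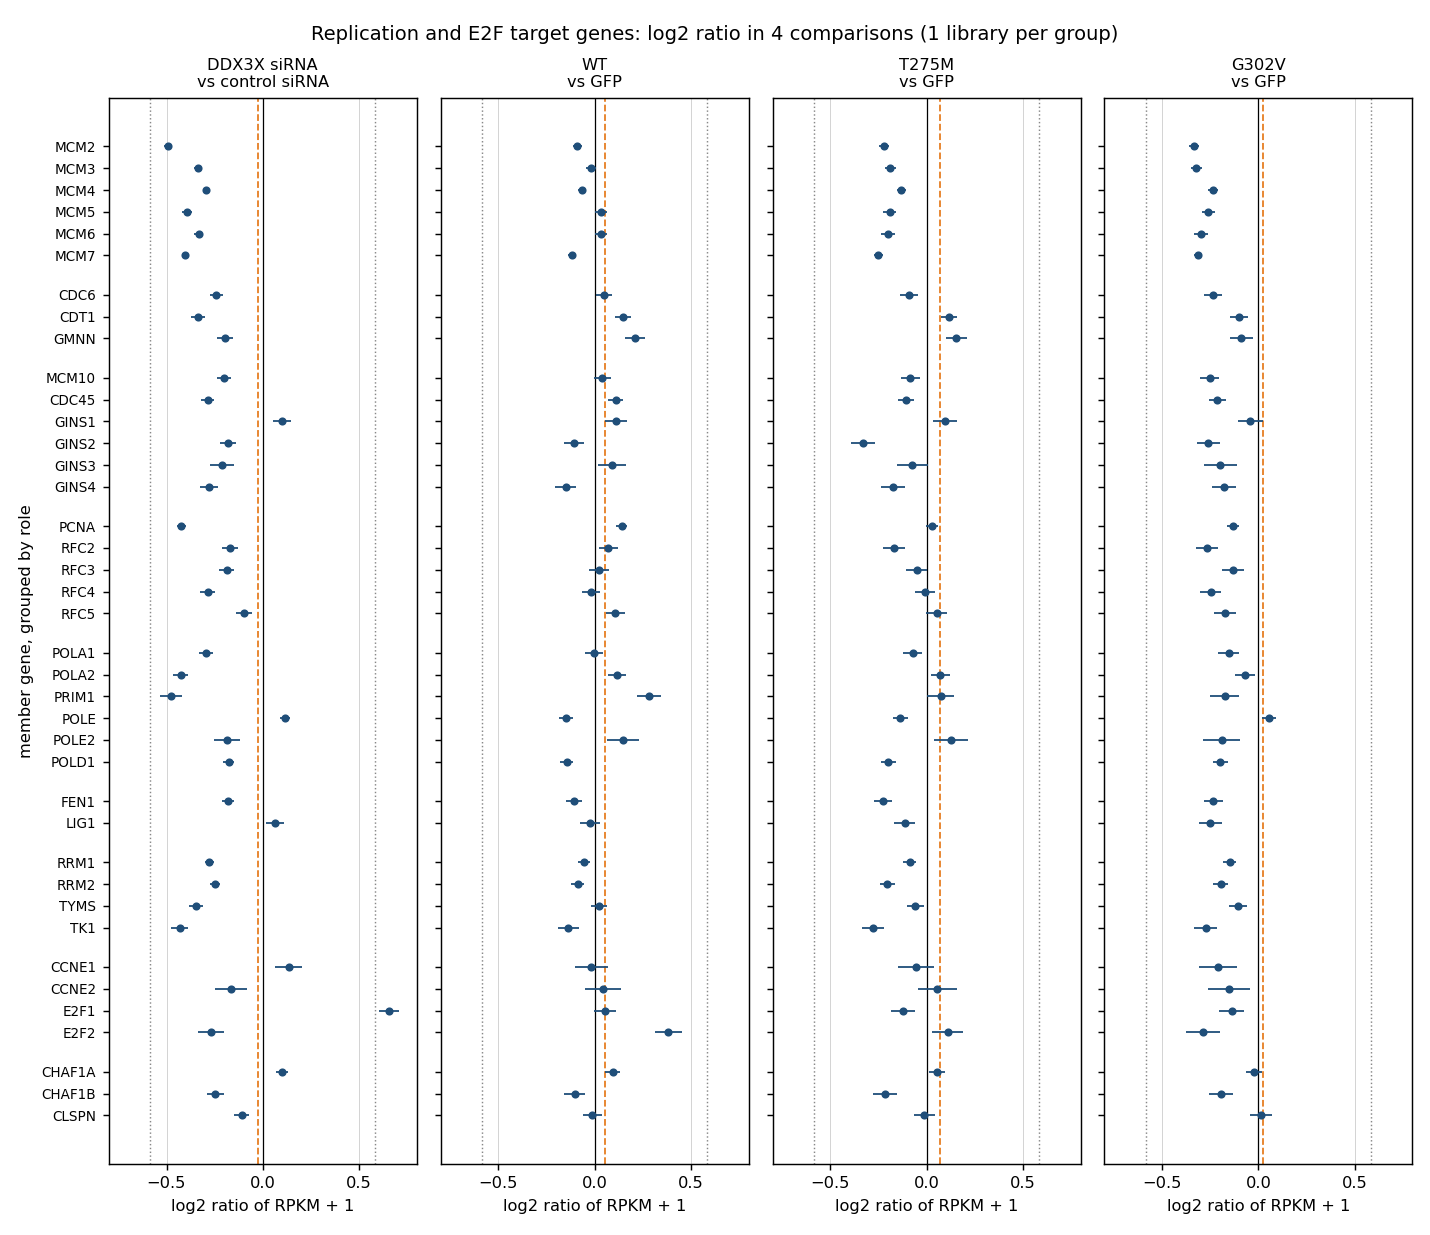
Difference of log2(RPKM + 1) (horizontal axes) of the 39 members (rows, grouped by role) in 4 comparisons, with exact 95% counting intervals as bars. The orange dashed line is the median of all genes tested, the dotted lines mark 1.5-fold, and in the panel of DDX3X siRNA 33 members lie left of 0 while E2F1 at 0.66 is the point past a dotted line.

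E2F1, a factor known to activate many genes of this list, and its relative E2F2 had ratios of opposite sign in the siRNA arm. E2F1 (chromosome 20, 32263283 to 32274191 on GRCh37) was at 17.5 RPKM with control siRNA and 28.1 with DDX3X siRNA, and at 28.9 with GFP, 30.1 with WT, 26.5 with T275M and 26.2 with G302V. The control siRNA library was therefore the lowest, and the other 5 lay between 26.2 and 30.1 RPKM. The arms differ in transfection, time and sorting. It thus cannot be told whether the control or the knockdown library departed within the siRNA arm. E2F1 was higher by 0.66 (interval 0.60 to 0.71) with DDX3X siRNA than with control siRNA, and by 0.70 (0.63 to 0.76) with GFP than with control siRNA. Both ratios use the same control siRNA library, so that they are not independent. With a pseudocount of 10 RPKM they were 0.47 and 0.50 and no longer past 1.5-fold.

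E2F2 (chromosome 1, 23832930 to 23857725) was at 5.03 RPKM with control siRNA and 4.01 with DDX3X siRNA, a ratio of -0.27 (interval -0.33 to -0.20). In the plasmid arm it was at 7.13 RPKM with GFP, 9.60 with WT, 7.78 with T275M and 5.66 with G302V. As a ratio of the highest to the lowest level, its range within that arm was the widest of the members, with WT highest and G302V lowest.

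The cyclin E genes encode the kinase partners that drive cells from G1 into S. CCNE1 (chromosome 19, 30302898 to 30315219) was at 15.3 RPKM with control siRNA and 16.9 with DDX3X siRNA (0.13, interval 0.07 to 0.20), and at 17.4 with GFP, 17.2 with WT, 16.7 with T275M and 14.9 with G302V. Except for G302V, its values in the plasmid arm had overlapping counting intervals. CCNE2 was at 6.59 and 5.77 RPKM in the siRNA arm, and at 9.17, 9.47, 9.57 and 8.15 RPKM with GFP, WT, T275M and G302V. Exons of genes on the other strand, INTS8 among them, overlap 37.1% of the exon bases of all its annotated transcripts. The overlap within the row counted was not measured, and strand was not stated for the counting, so its values are uncertain.

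**Figure D3:**
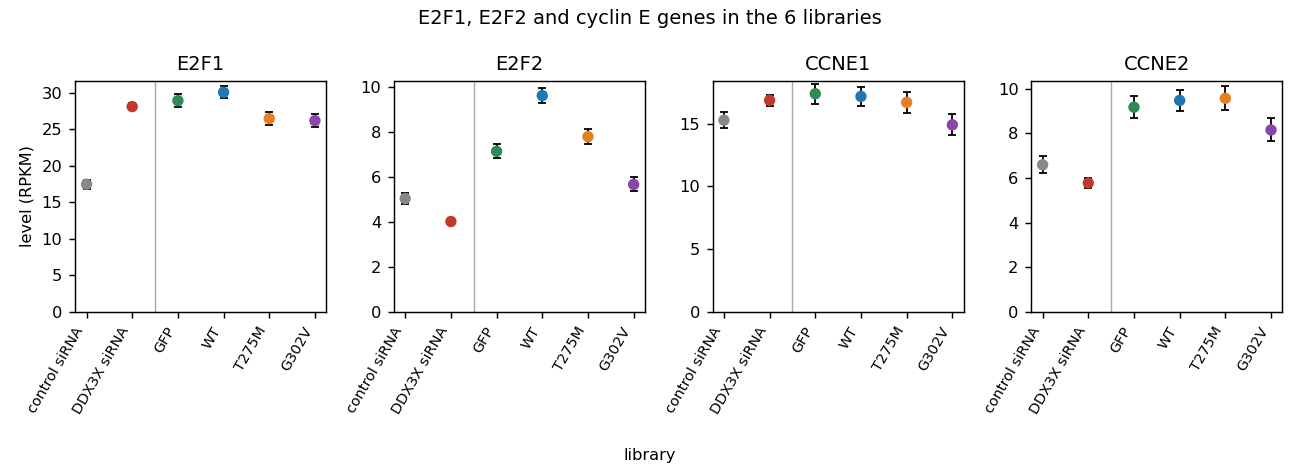
Level in RPKM (vertical axes, each from 0) of E2F1, E2F2, CCNE1 and CCNE2 in the 6 libraries (horizontal axes), 1 point per library with its exact 95% counting interval. The grey line separates the siRNA from the plasmid libraries. E2F1 is lowest with control siRNA (17.5 RPKM), and E2F2 spans 5.66 RPKM (G302V) to 9.60 RPKM (WT) among the plasmids.

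The plasmid comparisons asked how cells with wild-type or mutant DDX3X differ from cells with GFP alone. No member was past 1.5-fold with WT, T275M or G302V, where 2.21%, 2.64% and 1.77% of all genes were. All 3 comparisons use the same GFP library, so a value that is high or low there shifts each of them. With WT the members were close to GFP. Their median was at 0.02 against 0.05 for all genes and 0.0019 for those at 10 RPKM or more, with the interval above 0 for 16 of 39 members and below 0 for 12 (41.1% and 21.3% of all genes). Of 7154 genes at 10 RPKM or more, 2465 had an interval above 0 and 2359 below. The highest members were E2F2 at 0.38 (interval 0.31 to 0.46), PRIM1 at 0.28 and GMNN at 0.21, and the lowest were GINS4, POLE and POLD1, the catalytic subunit of the lagging-strand polymerase, each at -0.15. PRIM1 was at 40.1 RPKM with GFP and 49.0 with WT, and POLD1 at 64.1 and 57.9 RPKM. The helicase subunits were between -0.12 for MCM7 and 0.03 for MCM5 and MCM6, and these 2 were below 0 with median-ratio scaling. The sign of the median depended on the scaling. With libraries scaled by the median ratio of genes it was -0.067, and 27 of 39 members were below 0 in place of 18. The share of all genes below 0 also rose with that scaling, from 37.9% to 55.7%. With the trend of length and GC content removed the median member was at -0.0090, with 20 members below 0 beside 38.6% of all genes.

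With T275M, the median member was at -0.09 against 0.07 for all genes and -0.0058 for those at 10 RPKM or more. The interval lay below 0 for 23 of 39 members and above 0 for 8, where 23.4% and 44.2% of all genes did so, or 37.1% and 35.1% of those at 10 RPKM or more. All 6 helicase subunits were lower than with GFP, from -0.13 for MCM4 to -0.25 (interval -0.27 to -0.23) for MCM7. The other lowest members were GINS2, at -0.33 (interval -0.39 to -0.27), and TK1, at -0.28. GINS2 was at 83.2 RPKM with GFP, 77.2 with WT, 66.0 with T275M and 69.2 with G302V. The highest were GMNN at 0.15, POLE2 at 0.13 and CDT1 at 0.12, and these 3 stayed above 0 with median-ratio scaling (0.07, 0.04 and 0.03). GMNN and CDT1, which control loading of the helicase, were among 11 of 39 members above 0, and the loader CDC6 was at -0.09. GMNN and CDT1 stood near the middle of all genes, at percentiles 65.6 and 58.6. The helicase genes stood between percentiles 6.35 (MCM7) and 17.7 (MCM4). With median-ratio scaling the median member was at -0.18, and 34 of 39 members were below 0 in place of 28. The share of all genes below 0 also rose with that scaling, from 37.8% to 51.7%. With the trend of length and GC content removed the median member was at -0.14, with 29 members below 0 beside 41.4% of all genes.

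With G302V, nearly the whole list was lower than with GFP. The median member was at -0.20 against 0.03 for all genes and -0.03 for those at 10 RPKM or more, and the interval lay below 0 for 35 of 39 members, above 0 for POLE alone and across 0 for GINS1, CHAF1A and CLSPN. Of all genes, 26.3% had an interval below 0 and 35.1% above, and of those at 10 RPKM or more 40.9% and 29.0%. The lowest were MCM2 at -0.34 (interval -0.36 to -0.31), MCM3 at -0.32 (-0.35 to -0.29) and MCM7 at -0.31 (-0.34 to -0.29). The other helicase subunits were between -0.30 (MCM6) and -0.23 (MCM4). All 4 cyclin E and E2F genes were lower too, from -0.14 for E2F1 to -0.29 for E2F2. The highest members were POLE at 0.05, CLSPN at 0.01 and CHAF1A at -0.02. With the trend of length and GC content removed POLE was at -0.12 and CLSPN at -0.18, and GMNN, at -0.09 before, also changed sign.

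By library, G302V held the lowest of the 4 plasmid values for 33 of 39 members, beside 28.8% of 13137 genes. The exceptions were GINS2, RRM2, TK1 and CHAF1B, lowest with T275M, and POLE and CLSPN, lowest with WT. The highest plasmid value was with GFP for 16 members, WT for 20, T275M for 1 and G302V for 2. Of all genes, 22.9%, 25.8%, 27.1% and 24.3% were highest with these libraries. With median-ratio scaling G302V was lowest for 28 members, beside 24.8% of genes. GFP was then highest for 26 members and WT for 12, beside 35.1% and 17.4% of genes. Over all 6 libraries, DDX3X siRNA was lowest for 30 of 39 members, beside 36.1% of genes, and for 26 with median-ratio scaling, beside 22.4%. E2F1, GINS1, LIG1 and CHAF1A were lowest with control siRNA.

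The mutants were also set against WT directly, the comparison that leaves DDX3X high on both sides. Both mutants were read against the same WT library, so a value that is high or low there shifts both. The ratios of T275M and G302V to WT are thus not independent. With T275M no member was past 1.5-fold (0.347% of all genes were), the median member was at -0.09 against 0.00 for all genes and -0.01 for those at 10 RPKM or more, and the interval lay below 0 for 28 of 39 members and above 0 for none. That interval was below 0 for 20.5% of all genes and above 0 for 24.0%, or 30.1% and 23.6% of those at 10 RPKM or more. The lowest were E2F2 at -0.27, RFC2, a clamp loader subunit, at -0.24 and MCM6 at -0.23, and the highest were RFC4, CCNE2 and POLE, each at 0.01 with an interval that held 0.

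With G302V against WT, the median member was at -0.20 against -0.03 for all genes and -0.04 for those at 10 RPKM or more, and the interval lay below 0 for 36 of 39 members and above 0 for POLE. Of all genes 35.8% lay below and 26.2% above, and of those at 10 RPKM or more 42.3% and 28.8%. E2F2 was past 1.5-fold, at -0.67 (interval -0.75 to -0.59), beside 1.76% of all genes past it in either direction. It was 120th from the bottom of 12967 genes, and at a pseudocount of 10 RPKM its ratio was -0.32. PRIM1 was at -0.46 (interval -0.53 to -0.39), from 49.0 RPKM with WT to 35.4 with G302V, and RFC2 at -0.34, from 64.9 to 51.2 RPKM. POLE was at 0.20 (interval 0.17 to 0.24), from 26.4 to 30.5 RPKM, but at -0.03 with the trend of length and GC content removed. CLSPN was at 0.02 and GINS4 at -0.03. Of these libraries, G302V also had less DDX3X mRNA than WT (-0.60), and the part of that difference in the members' values was not tested.

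The controls of both arms, GFP and control siRNA, carried no change of DDX3X by design but differ in transfection, time and sorting, which cannot be told apart here. The ratio of DDX3X itself, GFP against control siRNA, was 0.15. The median member was at 0.12 against 0.01 for all genes and 0.03 for those at 10 RPKM or more, with the interval above 0 for 33 of 39 members and below 0 for CLSPN alone (33.2% and 31.3% of all genes, and 41.8% and 30.7% of those at 10 RPKM or more). Past 1.5-fold stood E2F1, at 0.70, beside 2.33% of all genes. LIG1 at 0.43 (23.1 RPKM with control siRNA and 31.6 with GFP), E2F2 at 0.43 and CCNE2 at 0.42 followed. At the low end stood CLSPN at -0.06, POLE2 at 0.00 and GMNN at 0.01. The cyclin E and E2F genes thus differed more between both controls than any other role group, with a median of 0.43. Both libraries also serve as the reference of the comparisons above, so these values and those are not independent.

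For comparison, 3 lists of other cell cycle genes, none of them members, were read in the same way. With DDX3X siRNA, 34 other replication genes had a median of -0.20, with the interval below 0 for 27 and above for 3, from KIAA0101 (the PCNA-associated factor) at -0.46 to TOPBP1 at 0.27. The 28 genes of mitosis and G2 had a median of -0.26, with 25 below and 2 above. The 25 G1 regulators had a median of -0.09, with 12 below and 6 above. Lower values after the knockdown were therefore not particular to the members. With G302V against GFP, the other replication genes had a median of -0.09 (20 below, 2 above) and the mitosis and G2 genes -0.04 (13 below, 5 above), beside -0.20 for the members. With G302V against WT, the other replication genes had a median of -0.16 (27 below, 4 above) and the mitosis and G2 genes -0.10 (20 below, 3 above), again beside -0.20 for the members. Between the controls, the mitosis and G2 genes had a median of -0.06 (17 below, 2 above) where the members had 0.12.

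CDKN1A, the p21 inhibitor of cyclin-dependent kinases, was the G1 regulator with the highest ratio for each DDX3X plasmid. It was at 7.38 RPKM with GFP, 16.3 with WT, 22.7 with T275M and 21.1 with G302V, and at 5.54 and 6.88 with control and DDX3X siRNA. Its ratio to GFP was 1.04 with WT (interval 0.94 to 1.15) and 1.40 with G302V, and that with T275M had an interval of 1.40 to 1.60. CDKN1B, the p27 inhibitor, was past 1.5-fold with WT (0.80) and T275M (0.76). E2F8, a repressor of the E2F family, was lower with G302V than with WT (10.1 and 6.02 RPKM, -0.65).

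**Figure D4:**
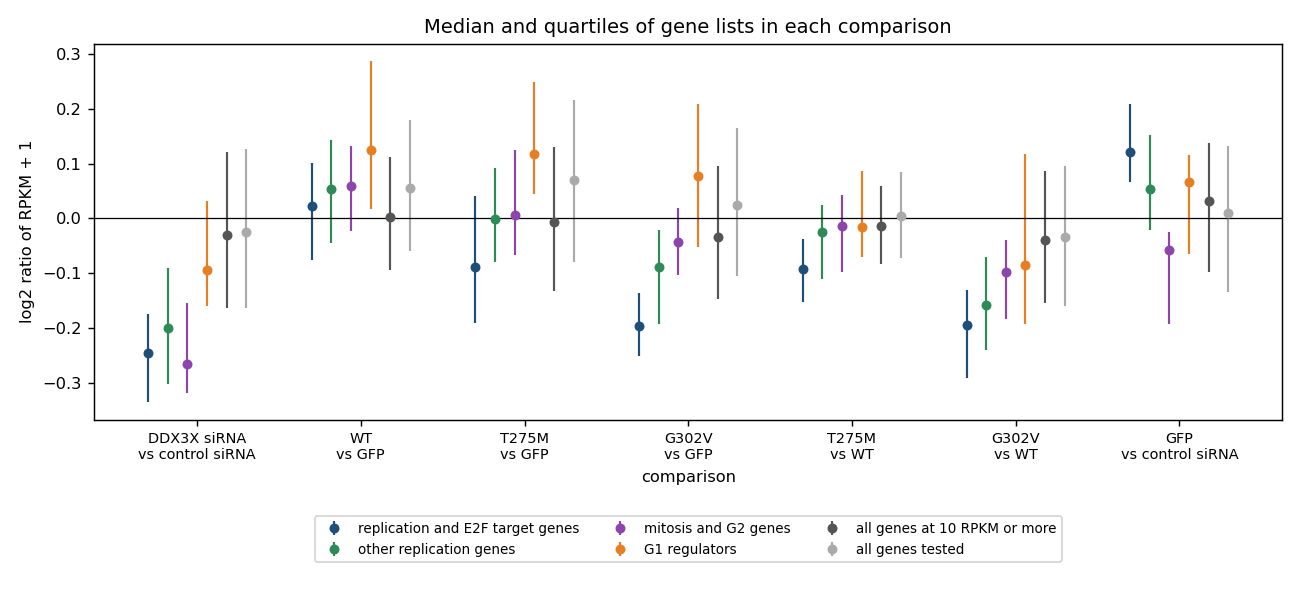
Median (points) and quartiles (bars) over genes of the difference of log2(RPKM + 1) (vertical axis) in 7 comparisons (horizontal axis), for the 39 members, 3 lists of other cell cycle genes and all genes. The members (dark blue) are at -0.25 with DDX3X siRNA, close to the mitosis and G2 genes at -0.26, and at -0.20 with G302V against GFP, below the other lists.

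The members' ratios were also read by whether their promoter held the E2F element, as a description and with no test of the difference. With DDX3X siRNA the median was -0.25 over the 20 members with an element and -0.20 over the 15 without. Against GFP it was 0.028 and -0.017 with WT, -0.074 and -0.088 with T275M, and -0.17 and -0.20 with G302V. Against WT it was -0.10 and -0.11 with T275M and -0.21 and -0.19 with G302V, and between the controls 0.099 and 0.13. Of the windows shown above, those of MCM2 and POLE both hold the element, with ratios of -0.49 and 0.12 after DDX3X siRNA. With the trend of length and GC content removed these ratios were -0.58 and -0.16. The part of the element in them was not tested.

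Counting bears on some members. Of the 39, 6 share 10% or more of their exon bases with exons on the other strand, namely TYMS (47.9%), CCNE2 (37.1%), MCM2 (23.6%), GINS4 (23.4%), GINS3 (10.9%) and RFC5 (10.6%), and reads of such partners cannot be separated without strand. The exon bases are those of all annotated transcripts of a gene. Neither the overlap within the rows counted nor the share over all genes was measured. For the 15 members with several transcript rows, the ratios of the rows of a gene differed by at most 0.10 (RFC3, G302V against WT).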

How the data were processed

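RNA of 6 HEK293T libraries, 1 per group, was analysed. The RPKM values were deposited by the authors, whose methods call the unit FPKM. Reads were trimmed with cutadapt, aligned with BWA 0.5.5 to hg19, RefSeq, exon junctions and AceView, and freed of duplicates by the authors. Strand was not given in the sources used here.

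RPKM times row length fell on whole multiples of a step (100% of rows checked, within 0.1), which gave reads and depths. Ratios on the log2(RPKM + 1) scale understate changes of low genes. A gene was tested at 1 RPKM and 10 reads or more in 1 of the libraries compared. Intervals are exact (Clopper-Pearson, Poisson for levels, 95%), and reads carry no molecular identifiers.

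Gene positions are from GENCODE 44. Members and lists were chosen with earlier results of these data known. Named were members past 1.5-fold, otherwise the 3 highest and 3 lowest, and the helicase, cyclin E and E2F genes. Other members were named to complete their role groups, and the E2F element was searched after values were seen. Alternatives are given in the closing section. Python 3.11.15, pandas 2.3.3 and scipy 1.17.1 were used, and the code was tested on simulated data.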

Additional observations from a re-analysis of the deposited data

How the results depend on the processing

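Each median and count of members past 1.5-fold was recomputed under pseudocounts of 0.1 and 10 RPKM, median-ratio scaling of the libraries, a minimum of 10 RPKM, no filter beyond 1 read, CPM, summed rows per symbol, a 2-fold threshold, thinning of the DDX3X siRNA library and, added after seeing the data, removal of a quadratic trend with length and GC content (a GC value was found for 39 of 39 members and 12950 of 13166 genes). Of these medians and counts, 108 moved by less than the limits set and 13 by more. The 1 member past 1.5-fold in each of DDX3X siRNA against control siRNA, G302V against WT and GFP against control siRNA became 0 with a pseudocount of 10 RPKM and with the 2-fold threshold, and for G302V against WT also 0 at a minimum of 10 RPKM, where E2F2 was not tested. With median-ratio scaling the median member was at -0.17 for DDX3X siRNA against control siRNA, -0.067 for WT against GFP, -0.18 for T275M against GFP, -0.24 for G302V against GFP and -0.15 for G302V against WT, and with a pseudocount of 10 RPKM it was at -0.14 for G302V against GFP. The WT median thereby changed sign, as it did with length and GC content removed (-0.0090), which also took the T275M median against GFP from -0.09 to -0.14. The same scaling moved the share of all genes below 0 from 54.5% to 42.4% with DDX3X siRNA and from 37.9% to 55.7% with WT, and the median of all genes by less than 0.1. No paired analysis was possible because each group holds 1 library, and for the same reason no library could be left out. Counting error was small at these depths, and the spread between cultures is unknown.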
